A study of Schizophyllum commune with 14 samples.

Results

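The 182 genes described here had their highest level in the stage 2 primordium of the split gill mushroom Schizophyllum commune. They were taken from the 14681 transcript models of the authors' log2 RPKM table (reads scaled to transcript length and to library size, on a log2 scale). A gene was kept when both stage 2 primordium libraries were at log2 RPKM 2 or more and each lay at least 1, a 2-fold difference, above the mean of every other stage. That was 1.24% of the table, and the hydrophobin gene Hyd5, which also reached these limits, was left out by the rule. Poly(A) RNA of 14 biological samples from 5 stages of the H4-8 strain was sequenced. All were from the dikaryon of the monokaryons H4-8a and H4-8b, grown on MM medium from a 5 mm agar plug. Plates were held for 5 days in the dark at 30 °C and then for 10 days at 25 °C with 12 hours of light and 12 of dark. Vegetative mycelium (VM), stage 1 primordium (P1, initials up to 2 mm), young fruiting body (YFB, cups of 5 to 7 mm with pseudolamellae showing inside) and fruiting body (FB, fully expanded) had 3 libraries each. Stage 2 primordium (P2, initials 3 to 4 mm tall whose tip carries a pit) had 2, numbered 2 and 3. The labels name no genetic change or treatment of any group. Each library is bulk tissue, in which more cells of a kind and more RNA per cell cannot be told apart.

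A dikaryon holds the nuclei of 2 mated strains side by side in each cell, and after light and a fall in temperature its hyphae gather into knots, which become primordia. In Schizophyllum commune the primordium opens by a pit at its tip into a cup, on whose inner face the split gills form. Hydrophobins, small secreted proteins that coat aerial hyphae and the air channels of fruiting bodies, and transcription factors such as WC1, Fst3, Fst4, c2h2, Gat1 and Bri1 are the best known genes of this process in the species. None of the 182 members carries a symbol in the gene reference, which gives no product descriptions, so members are named by locus tag and no function is given for them. A locus tag was matched for 174, 1 more matched only by an older tag, and 7 are named by model number.

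Libraries held 13708387 to 24052213 reads with a single placement. A further 0.59% to 0.886% of reads were placed at several models. The libraries of 1 stage were not alike for these genes. Stage 1 primordium replicate 3 lay above both other libraries of its stage in 158 of 182 members, or 86.81%, against 38.95% of the 11794 models with a stage mean at log2 RPKM 2 or more. Fruiting body replicate 1 was the highest of its stage in 147, or 80.77%, against 43.52%, and young fruiting body replicate 2 the lowest in 123, or 67.58%, against 39.82%. The authors' table carries a factor per library, which on the log2 scale was lowest in vegetative mycelium replicate 2 (-0.274), highest in stage 2 primordium replicate 2 (0.863) and 0.154 in the other stage 2 library. With no such factor 84 of the 182 genes met the rule and no gene outside them did. Stage 2 primordium replicate 3 was the lower of its stage in 156 members, and the rule found 1346 genes without it and 260 without replicate 2. Without young fruiting body replicate 2 the number was 108, of which 104 were among the 182, and without both stage 1 primordium replicate 3 and fruiting body replicate 1, a setting chosen after seeing the data, it was 208, of which 177 were. Among marker genes, the hydrophobin SC6 of fruiting dikaryons (matched by an older tag) had log2 RPKM of -1.61 to 0.42 in the mycelium. It had 7.65 to 9.57 in the small primordia (P1) and 2.01 and 1.81 in the larger ones (P2). Later it was at 6.32, 3.16 and 2.43 (YFB) and at 2.47, 7.30 and 8.04 (FB). SC3, the marker of aerial hyphae and vegetative growth, was at 7.89 to 8.84 in the mycelium but higher, 10.22 to 11.98, in the small primordia. It was at 5.57 and 7.55 in the larger ones, then at 10.01, 3.76 and 10.69 (YFB) and 2.21, 4.52 and 3.95 (FB). The markers SC1 and SC4 had no matched model, and no marker of stage 2 primordium alone was available.

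The members' median log2 RPKM was 3.76, 3.59 and 3.54 in the mycelium libraries, against 3.48 for all models in each, so the usual member was an ordinary gene of the mycelium. In stage 1 primordium it was 3.54, 3.41 and 5.18, the last in replicate 3. It reached 8.56 and 6.97 in stage 2 primordium. In young fruiting body it was 5.83, 5.04 and 5.98, and in fruiting body 6.13, 4.81 and 4.84. The fruiting libraries after the peak thus all stood above the mycelium for the median member, and the 2 stage 2 libraries stood above all 12 others. The members together held 0.78% to 0.895% of the unique reads in vegetative mycelium. They held 15.4% and 10.3% in stage 2 primordium, where the 10 of highest level alone took 6.46% and 4.65%. In the other fruiting libraries the share was 1.33%, 1.11% and 3.83% (P1), 4.25%, 2.52% and 4.95% (YFB), and 4.22%, 2.66% and 2.26% (FB). The stage 2 values were what the rule selected, so they are given as a description with no test.

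**Figure D1:**
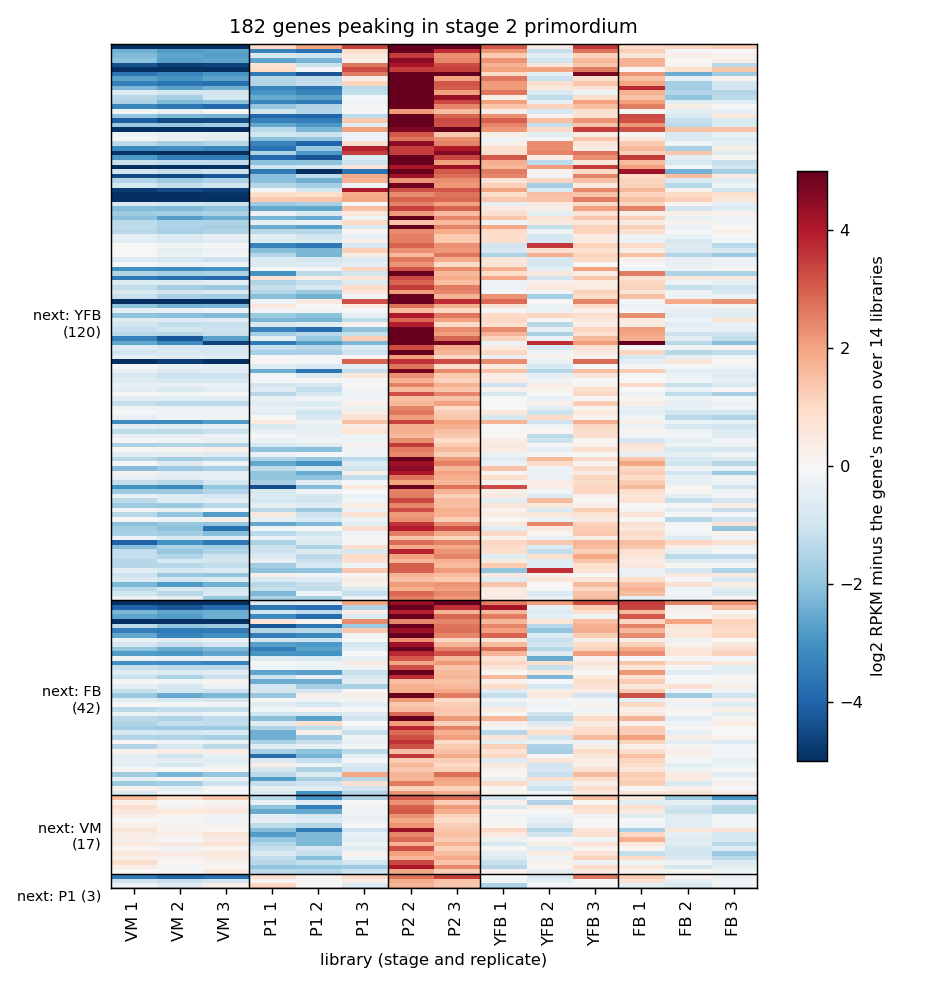
Levels of the 182 members (rows) in 14 libraries (columns), as log2 RPKM minus the gene's mean over the libraries, with blue low and red high; rows are grouped by the stage of second highest mean. The 2 stage 2 columns are red throughout because the rule chose them, and stage 1 primordium replicate 3 (P1 3) and fruiting body replicate 1 (FB 1) are redder than their neighbours in many rows.

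The member with the highest stage 2 level was model 2629707, with log2 RPKM 14.90 and 13.71 there. It was at 0.28, -1.17 and -1.31 in vegetative mycelium and at 9.64, 10.64 and 11.99 in stage 1 primordium. After the peak it was at 11.68, 9.04 and 12.18 in the small cups and at 9.63, 9.69 and 9.90 in the expanded fruiting bodies. It was thus nearly silent in mycelium, with 17, 7 and 6 reads, and abundant in every fruiting library. SCHCODRAFT_02633705, second, followed another course, with 6.34, 5.97 and 6.08 in mycelium, 5.43, 5.03 and 9.74 in stage 1 primordium and 14.25 and 12.46 in stage 2 primordium. It stayed at 10.95, 7.56 and 11.46 in young fruiting body and at 9.98, 8.62 and 8.77 in fruiting body. SCHCODRAFT_02547507 was the 1 gene of the first 3 that was higher in stage 2 replicate 3, with 12.75 and 13.69, and it stayed at 10.56 to 11.90 in the 6 later libraries after -1.12 to 0.98 in mycelium. The other genes of the top 10 were SCHCODRAFT_02631869 (13.49 and 12.28), SCHCODRAFT_02612754 (13.76 and 11.67), SCHCODRAFT_02631118 (14.38 and 10.70), SCHCODRAFT_02638753 (12.84 and 12.01), SCHCODRAFT_02632111 (13.33 and 11.14), SCHCODRAFT_02664679 (11.71 and 12.43) and SCHCODRAFT_02635692 (14.18 and 9.80). In SCHCODRAFT_02631118 and SCHCODRAFT_02635692 the lower stage 2 library was beneath the highest library of another stage, young fruiting body replicate 1 at 11.18 and fruiting body replicate 1 at 10.02. In all, 21 members were at log2 RPKM 10 or more in both stage 2 libraries.

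The distance of the lower stage 2 library from the next highest stage mean had a median of 1.28 on the log2 scale, and 22 members reached 2 or more and 2 members 3 or more. SCHCODRAFT_02610878 had the widest, 4.35. It was at 12.43 and 9.91 in stage 2 primordium and at 2.94 to 7.01 in the 12 other libraries, so no other library came near it. SCHCODRAFT_02633699 followed with 3.81, at 12.25 and 11.37 in stage 2 primordium. Its other libraries ran from 1.50 to 10.54, with 8.37 in stage 1 primordium replicate 3 against 2.22 and 1.50 in the others of that stage. SCHCODRAFT_02671276 had a distance of 2.93 on 8.73 and 6.90 in stage 2 primordium, and had 1 to 5 reads in each mycelium and stage 1 library. Its lower stage 2 library was beneath fruiting body replicate 1. Further wide distances were those of SCHCODRAFT_0107357 (2.46), SCHCODRAFT_02677561 (2.43), SCHCODRAFT_02322551 (2.38) and model 2595664 (2.33). In SCHCODRAFT_0107357 the lower stage 2 library, at 5.63, was beneath fruiting body replicate 1 at 6.24. SCHCODRAFT_02644022, at 2.79, rests on reads shared with other models, since 2.64% of its reads had a single placement, and its identity is uncertain. Over the individual libraries, 154 of 182 members had both stage 2 libraries above all 12 others, and 25 by at least 2-fold. The margin was narrow for many, and just inside it were SCHCODRAFT_01036824, model 71813 and SCHCODRAFT_02274122, each at 1.00. Just outside were SCHCODRAFT_01300855 (0.9991), SCHCODRAFT_02621533 (0.9978) and SCHCODRAFT_01192881 (0.9934), and 420 models lay between 0.5 and 1.

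**Figure D2:**
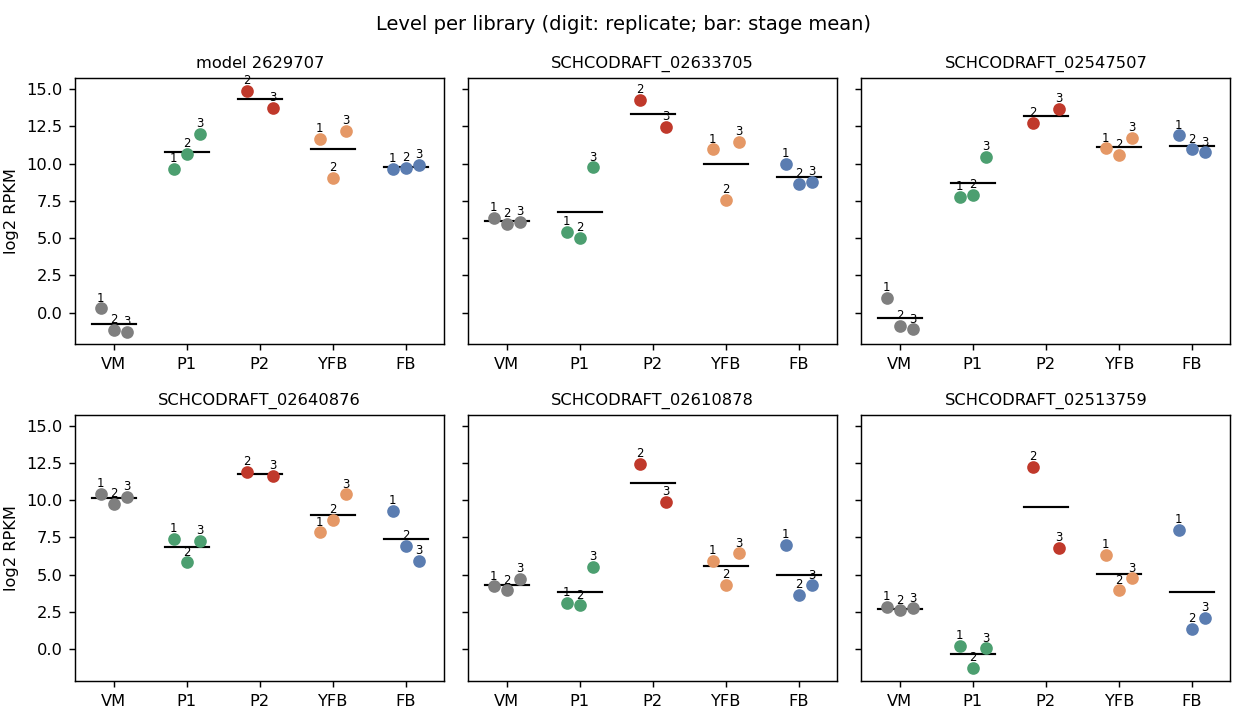
Log2 RPKM of 6 members in each library (points, with the replicate number above) and the stage mean (bar). Model 2629707 and SCHCODRAFT_02547507 are near 0 in the mycelium only; in SCHCODRAFT_02640876 the mycelium is the next highest stage; and SCHCODRAFT_02513759 has stage 2 libraries at 12.23 and 6.82.

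The stage next below the peak was the young fruiting body in 120 members, the fruiting body in 42, the vegetative mycelium in 17 and stage 1 primordium in 3. Of single libraries, young fruiting body replicate 3 was the next highest in 55, fruiting body replicate 1 in 53 and young fruiting body replicate 1 in 40. The 120 genes with young fruiting body next had medians of their stage means of 3.46 (VM), 4.46 (P1), 8.08 (P2), 5.79 (YFB) and 5.27 (FB). The 42 with fruiting body next had medians of 3.28, 3.95, 7.44, 5.30 and 5.54 in the same order. By these medians both sets were near all models in the mycelium (3.47) and above them in the small primordium (3.58). Both then peaked, and came down by less than they had gone up. The smaller fall follows from the grouping, which put a later stage next below the peak, so it is no separate result. The 17 with mycelium next differed in shape, with medians of 5.76, 3.87, 7.79, 5.56 and 5.33, so that their lowest median was in the small primordium. Their leading gene was SCHCODRAFT_02640876. It was at 10.42, 9.75 and 10.23 in mycelium, at 7.42, 5.83 and 7.30 in the small primordia, at 11.89 and 11.62 at the peak, and at 5.91 to 10.40 later. SCHCODRAFT_02628645, the second by level, moved less, from 8.52 to 8.80 in mycelium to 7.84 to 8.45 in stage 1 primordium and 10.73 and 9.70 in stage 2. Its lowest stage mean was in fruiting body, at 7.92, against 8.13 in stage 1 primordium and 8.09 in young fruiting body. The 3 with stage 1 primordium next were led by SCHCODRAFT_02664679, at 9.85, 9.16 and 9.98 there after 5.04 to 5.49 in mycelium, and SCHCODRAFT_01293032, at 6.33, 6.53 and 6.77 after 5.34 to 5.48.

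The 2 stage 2 libraries gave different heights for the same peak. Replicate 2 was above replicate 3 in 156 of 182 members, against 46.11% of all table models, and the median difference was 1.02 on the log2 scale with a range from -1.08 to 5.54. The 2 libraries were within 2-fold in 87 members and at least 4-fold apart in 42. These values carry the library factors of 0.863 (replicate 2) and 0.154 (replicate 3), so they depend on that scaling. SCHCODRAFT_02634072 had the largest difference, with 14.05 and 8.51, and it was at 3.11 to 9.12 elsewhere. SCHCODRAFT_02361211 was at 11.36 and 5.93, and SCHCODRAFT_02513759 at 12.23 and 6.82. For these 3 genes both libraries clear the rule, but the lower of them was beneath a library of another stage, young fruiting body replicate 1 at 9.12, fruiting body replicate 1 at 6.85 and fruiting body replicate 1 at 8.00. The smallest differences were in SCHCODRAFT_02091618 (2.42 and 2.43), SCHCODRAFT_02617495 (5.16 and 5.17) and SCHCODRAFT_02625520 (11.44 and 11.45). With 2 libraries the design cannot say which height is typical of the stage. Few reads limit 18 members, which had under 100 total reads in a stage 2 library.

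The members also differed between replicates of the other stages. In 103 members stage 1 primordium replicate 3 was at least 2-fold above the mean of the other 2 libraries (56.59%, against 6.54% of the 11794 models), and in 99 fruiting body replicate 1 was (54.4% against 8.4%). Both held in 73, or 40.11% against 2.65%. Young fruiting body replicate 2 was at least 2-fold below its companions in 89, or 48.9% against 10.51%. The median differences of these 3 libraries were 1.12, 1.19 and -0.95 in the members, and 0.00, 0.01 and -0.03 over the 11794 models. Across the 182 members the difference in stage 1 primordium replicate 3 and that in fruiting body replicate 1 had Pearson's r = 0.34 and Spearman's rho = 0.468 (0.295 and 0.223 over the 11794 models). The difference between the stage 2 libraries went with that of fruiting body replicate 1 (r = 0.452, rho = 0.309; 0.092 and 0.02 over the models) and hardly with that of stage 1 primordium replicate 3 (0.058 and 0.092). Each point of these relations is a gene, the genes share the libraries, and all were chosen by 1 rule, so the values describe these libraries. The 6 hydrophobins in the table, which are not members, were mixed. Stage 1 primordium replicate 3 was the lowest of its stage in 4 of them and the highest in 1, which was Hyd5, and fruiting body replicate 1 was the lowest in 3 and the highest in 2. Young fruiting body replicate 2 was the lowest of its stage in 5 of the 6. Their summed linear RPKM, in which the abundant SC3 weighs most in stage 1 primordium, was 4555, 3508 and 1631 there, 1369, 71.3 and 1745 in young fruiting body, and 403, 428 and 758 in fruiting body. The 6 regulators were each lowest in replicate 1 among the fruiting body libraries, and the part of any of this in the members' values was not tested.

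**Figure D3:**
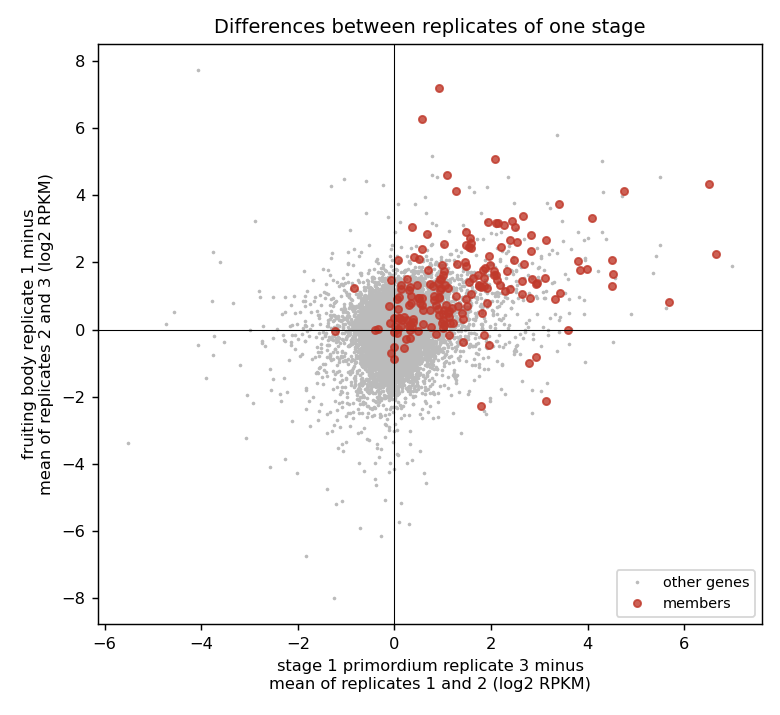
Difference of stage 1 primordium replicate 3 (x axis) and of fruiting body replicate 1 (y axis) from the mean of the 2 other libraries of the stage, in log2 RPKM, for members (red) and the other models with a stage mean of 2 or more (grey). Most members lie in the upper right, where both libraries are higher than their companions.

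Tests were made only between stages that the rule did not contrast with each other, on the 12 libraries other than stage 2 primordium and on unique reads (edgeR quasi-likelihood, two-sided, Benjamini-Hochberg over all 14164 genes tested, called at an adjusted p under 0.05). The rule held the means of these 4 stages under a ceiling but did not order them. Of the 182 members, 180 were tested. SCHCODRAFT_02466561, with 12 and 17 reads in the stage 2 libraries, and SCHCODRAFT_02644022, with 9 and 9 unique reads, were not. Differences are log2 fold changes with their standard error (SE). The p-values measure the spread between these samples, and 75 members were called in none of the 4 comparisons (41.67%, against 34.47% of all genes).

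Stage 1 primordium against vegetative mycelium asked which members were already moving when the first initials appeared. In all, 48 members were higher (26.67% of those tested, against 23.2% of all genes) and 20 lower (11.11% against 25.1%), so the share of rises was near that of all genes and the share of falls under it. The largest rise was in model 2629707, by 11.64 (SE 1.12, adjusted p = 1.2e-05). It was 12.34 without vegetative mycelium replicate 1 and 10.80 without stage 1 primordium replicate 3. SCHCODRAFT_02547507 rose by 9.28 (SE 1.07, adjusted p = 4.14e-05), from 51, 16 and 13 reads to 4957, 5853 and 29303. Without the same 2 libraries in turn its change was 10.27 and 7.83. SCHCODRAFT_02514491 had 2, 0 and 0 reads in mycelium and 80, 140 and 811 in stage 1 primordium (adjusted p = 0.00128), too few at the start for a fold to be given. SCHCODRAFT_02677561 rose by 7.59 (SE 1.51, adjusted p = 0.002), or 5.23 without stage 1 primordium replicate 3. SCHCODRAFT_02625520 rose by 6.66 (SE 0.64, adjusted p = 5.99e-06), or 5.71 without that library. In each of these genes all 3 primordium libraries lay above all 3 mycelium libraries.

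Among further members of high stage 2 level, SCHCODRAFT_02638753 rose by 5.98 (SE 1.06, adjusted p = 0.000899), SCHCODRAFT_02664679 by 4.39 (SE 0.84, adjusted p = 0.00155) and SCHCODRAFT_02631869 by 2.19 (SE 0.48, adjusted p = 0.00254). Without stage 1 primordium replicate 3 the first and last of these were 4.60 and 1.56. The falls were led by SCHCODRAFT_02640876, with a change of -3.20 (SE 0.91, adjusted p = 0.0146), whose call was lost without stage 1 primordium replicate 2 (-2.85, adjusted p = 0.0531). SCHCODRAFT_02716916 fell from 51, 46 and 48 reads to 9, 10 and 9 (-2.08, SE 0.55, adjusted p = 0.00783). The call of SCHCODRAFT_02056883 (-2.31, SE 0.78, adjusted p = 0.0302) was lost without any 1 of the mycelium libraries or stage 1 primordium replicates 1 and 2 (adjusted p 0.0503 to 0.0892), and its change was -3.08 without stage 1 primordium replicate 3. The number of falls was 31 without stage 1 primordium replicate 3 (17.22% against 22.65% of all genes), and 10 and 7 without its replicates 1 and 2 (5.56% and 3.89% against 20.96% and 19.9%). Leaving out the mycelium libraries in turn gave 11, 11 and 10 (6.11%, 6.11% and 5.56% against 20.5%, 20.22% and 20.7%). Without stage 1 primordium replicate 3 the members' median change was -0.25 (0.31 with it; all genes -0.04 and -0.02). Scaled to the library total alone, 40 members were higher (22.22% against 16.29% of all genes) and 34 lower (18.89% against 33.45%). The median over all genes was then -0.29. By the flow cell given in the labels, the mycelium libraries came from 1 and the fruiting libraries from another, so a difference of stage and one of flow cell cannot be told apart here.

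Young fruiting body against stage 1 primordium passes over the peak, and asked whether the members came back to the level they had before it. In all, 41 of 180 rose (22.78%, against 9.88% of all genes) and 0 fell (against 5.35%; 0 at an unadjusted p under 0.05, and 0 by DESeq2), while 139 were not called. The fold change was above 0 in 171 of 180 members, with a median of 1.17 against 0.07 for all genes. SCHCODRAFT_02513759 had the largest rise, 5.64 (SE 1.70, adjusted p = 0.0487), from 0.25, -1.24 and 0.07 to 6.36, 3.95 and 4.76 log2 RPKM. Its call is the least firm, and was lost without any 1 mycelium or stage 1 library, young fruiting body replicate 1 or 3 (adjusted p 0.0706 to 0.15); without young fruiting body replicate 1 the change was 4.68. SCHCODRAFT_02631118 rose by 5.39 (SE 1.28, adjusted p = 0.021), from 3.41, 3.26 and 5.54 to 11.18, 6.69 and 8.36 log2 RPKM. The change was 3.31 without young fruiting body replicate 1 and 6.52 without stage 1 primordium replicate 3. SCHCODRAFT_02616754 rose by 4.51 (SE 0.98, adjusted p = 0.0146), from 3.12, 3.79 and 5.52 to 9.81, 5.97 and 9.18, and the same 2 libraries gave 3.83 and 5.52. In these 3 genes no young fruiting body library overlapped the stage 1 libraries. Without stage 1 primordium replicate 1 or 2 the calls of SCHCODRAFT_02631118 (adjusted p = 0.0828 and 0.0823) and SCHCODRAFT_02616754 (0.0593 and 0.0639) were lost.

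The number of rises depended on single libraries, and in 3 settings its share was near that of all genes. Those were without stage 1 primordium replicate 1 (7 rises, 3.89% against 4.33% of all genes), without its replicate 2 (7, 3.89% against 4.02%) and without young fruiting body replicate 3 (10, 5.56% against 5.03%). Without young fruiting body replicate 1 there were 26 (14.44% against 9.45%), and without each mycelium library in turn 24, 22 and 24 (13.33%, 12.22% and 13.33% against 7.46%, 7.31% and 7.38%). The number was 79 without stage 1 primordium replicate 3 (43.89% against 10.12%), 71 without young fruiting body replicate 2 (39.44% against 12.22%) and 67 without fruiting body replicate 1 (37.22% against 14.34%). Without both stage 1 primordium replicate 3 and fruiting body replicate 1 it was 110 (61.11% against 14.16%). That setting was chosen after seeing that most members were high in these 2 libraries. Leaving them out lowers the stage 1 level of most members, so the 110 is no separate result. The members' median change stayed above that of all genes in these settings, from 0.89 without young fruiting body replicate 3 to 1.77 without stage 1 primordium replicate 3.

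Fruiting body against stage 1 primordium gave 45 rises (25.0%, against 21.7% of all genes) and 0 falls (against 16.9%; 1 at an unadjusted p under 0.05, and 0 by DESeq2). The share of rises was near that of all genes, while the median change was 0.86 against 0.02, with 137 of 180 members above 0. The call of SCHCODRAFT_02616754 held without any 1 library (4.48, SE 0.98, adjusted p = 0.00554), at 8.01 to 9.85 log2 RPKM in the fruiting body, with a change of 5.48 without stage 1 primordium replicate 3 and 3.72 without fruiting body replicate 1. SCHCODRAFT_02631118 rose by 4.85 (SE 1.25, adjusted p = 0.0123), to 10.43, 7.37 and 8.57. That change was 5.98 and 3.62 without the same 2 libraries, and the call was lost without stage 1 primordium replicate 1 (adjusted p = 0.0501). The 2 largest values rested on fruiting body replicate 1. SCHCODRAFT_02671276 was at 7.62, 0.76 and 0.06 log2 RPKM in the fruiting body, and its change of 6.84 (SE 2.11, adjusted p = 0.0269) was 1.14 without that library (adjusted p = 0.573); the call was also lost without any 1 of the stage 1 libraries (adjusted p 0.0651 to 0.0886). SCHCODRAFT_02513759 was at 8.00, 1.37 and 2.11, and its 6.69 (SE 1.75, adjusted p = 0.0132) was 2.03 (adjusted p = 0.0579). Without fruiting body replicate 1 there were 17 rises, a smaller share than over all genes (9.44% against 18.58%), with 0.30 as the median change. The share was also the smaller one without stage 1 primordium replicate 1 (18 rises, 10.0% against 15.89%) or 2 (18, 10.0% against 16.37%). Without its replicate 3 there were 76 (42.22% against 19.56%). The 2 comparisons with stage 1 primordium share those 3 libraries.

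Between young fruiting body and fruiting body little was called. No member was higher in the fruiting body (against 3.84% of all genes). There were also 0 at an unadjusted p under 0.05 (against 1980 of 14164 genes) and 0 by DESeq2 (against 7.54%). At an unadjusted p under 0.05, 16 of 180 members were lower, against 1820 of 14164 genes. By DESeq2 3 were lower (1.67% against 5.22%), and by the main test 1 (0.56% against 2.15%). The 1 gene of the main test was SCHCODRAFT_02634927 (-1.60, SE 0.39, adjusted p = 0.0352). It was at 3.18, 4.04 and 4.40 log2 RPKM in young fruiting body and at 2.48, 2.76 and 1.80 in fruiting body, with no overlap. The call was lost without any 1 mycelium library, any 1 fruiting body library or young fruiting body replicate 2 or 3 (adjusted p 0.0536 to 0.0921). The members' median change was -0.31 against -0.03 for all genes, and 39 of 180 had a change above 0. Leaving out fruiting body replicate 1 gave a median of -0.83 and 6 falls (3.33% against 1.52% of all genes). The falls numbered 2 without stage 1 primordium replicate 3 (1.11% against 2.37%). Without young fruiting body replicates 1, 2 and 3 they numbered 3 (1.67% against 4.54%), 5 (2.78% against 1.28%) and 0 (against 0.39%). There were 0 without fruiting body replicate 2 or 3 (against 0.67% and 1.93%). Without each mycelium library in turn there were 0 (against 0.76%, 0.74% and 0.74%). Without both stage 1 primordium replicate 3 and fruiting body replicate 1 there were 24 (13.33% against 2.28%). That setting was chosen after seeing most members high in these libraries. Leaving out the latter lowers their fruiting body level, so the 24 is no separate result.

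**Figure D4:**
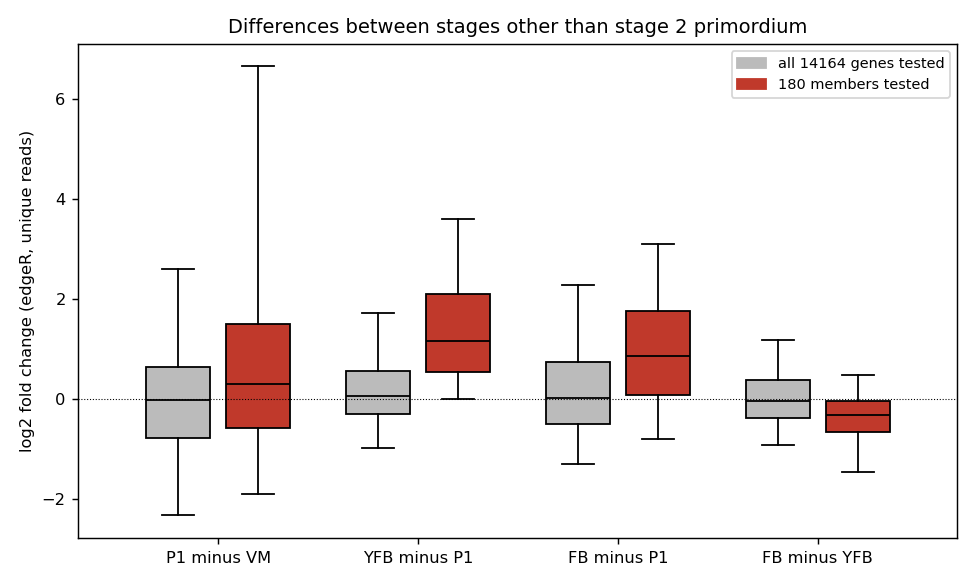
Log2 fold changes in the 4 tested comparisons for all 14164 genes (grey) and the 180 members tested (red); boxes span the quartiles with the median as a line, and whiskers the 5th to 95th percentiles. The members' boxes lie above those of all genes in both comparisons of a later stage with stage 1 primordium and below them for fruiting body minus young fruiting body, with medians of 1.17, 0.86 and -0.31.

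Some members were neighbours in the genome, a property the rule did not use. Of the 174 members placed in the order of 16187 protein coding genes on 25 scaffolds, 17 had another member as the next coding gene, or 9.77%, while 2.2% of the 14214 other placed models had a member next to them. Within 2 coding genes the shares were 15.52% and 4.25%. These neighbours formed 12 runs holding 27 members, 3 of them with 3 members. The run of SCHCODRAFT_02511180, SCHCODRAFT_02633699 and SCHCODRAFT_02633705 held the gene of second highest level and that of second widest distance, with SCHCODRAFT_02633698, no member, between. SCHCODRAFT_02633699 and SCHCODRAFT_02633705 both had high values in the same libraries, with 8.37 and 9.74 in stage 1 primordium replicate 3 after 1.50 to 2.22 and 5.03 to 5.43 in the other libraries of the stage. SCHCODRAFT_02511180 moved little, from 5.33 to 6.41 elsewhere to 8.24 and 7.22 in stage 2, and SCHCODRAFT_02633698 was at 2.25 to 4.17 throughout. The gene between thus had no peak in stage 2.

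In the run of SCHCODRAFT_02635681, SCHCODRAFT_02635690 and SCHCODRAFT_02635692 the stage 2 levels were 9.14 and 9.46, 11.20 and 9.47, and 14.18 and 9.80. The first of them was at 1.61 to 1.87 in mycelium and 7.57 to 9.46 in all fruiting libraries, while the second was already at 7.63 to 7.89 in mycelium, so the courses before the peak differed. SCHCODRAFT_02635690 had 83.24% of its reads with a single placement. The third run held SCHCODRAFT_02621972 (6.78 and 7.15), SCHCODRAFT_02677561 (10.26 and 10.76) and SCHCODRAFT_01036824 (7.15 and 6.98). Of these, SCHCODRAFT_01036824 was called higher in young fruiting body than in stage 1 primordium (1.09, SE 0.25, adjusted p = 0.0152), a call lost without stage 1 primordium replicate 1 or 2 or young fruiting body replicate 3 (adjusted p 0.057 to 0.0646). Among the pairs were SCHCODRAFT_02586235 (11.86 and 10.21) with SCHCODRAFT_01326852 (9.03 and 8.10), and SCHCODRAFT_02490756 (6.99 and 5.26) with SCHCODRAFT_0107357 (9.54 and 5.63). Between SCHCODRAFT_02586235 and SCHCODRAFT_01326852 lay SCHCODRAFT_02635070, no member, at 4.77 and 5.88 in stage 2. The kit does not mark strand, so reads that run on from 1 gene into the next, or against it, were not told apart.

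**Figure D5:**
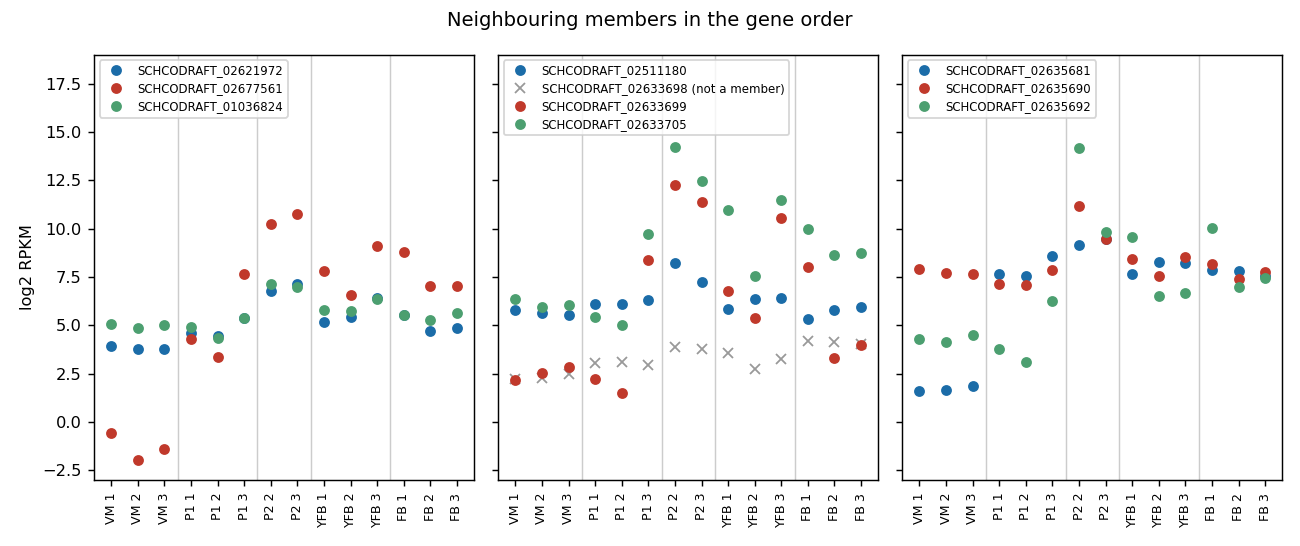
Log2 RPKM in each library for the 3 runs of 3 neighbouring members; crosses are a gene between them that is no member. SCHCODRAFT_02633699 and SCHCODRAFT_02633705 move together from library to library, while SCHCODRAFT_02635681 and SCHCODRAFT_02635690 differ in the mycelium.

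Of other features, transcript length and read placement were looked at. Features of the proteins and promoters were not, since no sequences were available. Transcripts of members were shorter, with a median of 1014 bases against 1299 over the table and a range from 165 to 3528. All reads had a single placement in 156 members, and 6 had under 90%, among them SCHCODRAFT_01293032 (73.97%) and SCHCODRAFT_02274122 (68.44%). None of the 1638 models outside the authors' table met the rule, with at most 9 total reads in a stage 2 library. Of genes with a symbol, Hyd5 was at log2 RPKM 8.61 and 6.57 in stage 2 primordium and shared the members' replicate differences, with 6.32 in stage 1 primordium replicate 3 against 4.13 and 4.29, and 5.79 in fruiting body replicate 1 against 2.88 and 3.01. WC1, the blue light receptor gene, missed the rule with a distance of 0.56, at 6.79 and 5.80 against 4.32 to 5.37 in the other 12 libraries. In the tests without stage 2 primordium, 6 of 7 hydrophobins were higher in stage 1 primordium than in mycelium and 0 lower. Against stage 1 primordium, 1 hydrophobin (Hyd9) fell and 0 rose in young fruiting body, and 2 (Hyd9 and SC3) fell and 0 rose in fruiting body. Hyd9, also among the 6 that were higher in stage 1 primordium, had 165 total reads over all libraries and is outside the authors' table. Of the members, 22.78% rose in young fruiting body (against 9.88% of all genes) and 25.0% in fruiting body (against 21.7%). No member fell in either (against 5.35% and 16.9%). The first share was near that of all genes in some settings with 1 library left out. In fruiting body, 1 member fell without stage 1 primordium replicate 2 or without fruiting body replicate 1. Of the 6 regulators, 4 fell and 1 rose in fruiting body against stage 1 primordium.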

How the data were processed

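Poly(A) RNA of 14 samples was sequenced with an unstranded kit (TruSeq RNA v2), per the labels' protocols. The authors deposited counts per transcript model (unique gene reads and total gene reads, 16319 models) for each library, and a log2 RPKM table of 14681 models. Recomputed from the counts, the deposited log2 values follow total reads with 1 offset per library (spread 0.00039 to 0.00092, models of 200 total reads or more). R 3.0.2, edgeR 3.4.2 and limma 3.18.13 are named in the submitters' processing notes. The deposited counts are labelled CLC RNA-Seq. No source used here gives more on the aligner, the counting method or the genome build.

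Model numbers from 2000000 up were matched to locus tags (RefSeq, assembly Schco3) after subtracting 287 (14009 of 14254; the next best of 4001 offsets gave 1180), and 295 of 16319 models stayed unmatched. Members were found by the rule on the log2 RPKM columns. Tests on unique reads (R 4.3.3, edgeR 4.0.16) used TMM, the filterByExpr filter with stage as group, a robust quasi-likelihood fit of stage on the 12 libraries without stage 2 primordium, and Benjamini-Hochberg adjustment over 14164 genes. The SE is the fold change's size divided by the root of its F statistic. DESeq2 was 1.42.0.

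The members, lists and tests were chosen with earlier results of these data known. Members named in the text are the 10 of highest stage 2 level, the 10 of widest distance, the 3 largest called rises and falls per comparison, the 2 of highest level per next stage, the 3 nearest each side of the limit, and the 3 with the largest and smallest differences between the stage 2 libraries. Members of runs of neighbours, and the 2 not tested, were named after their values were seen. Settings were other reads, scalings, filters, tools, sets of libraries, a replicate block, and each library left out.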

Additional observations from a re-analysis of the deposited data

How the results depend on the processing

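The number of genes meeting the rule was 84 with no library factor, 121 with means of linear RPKM, 22 with a margin of 2, 25 above every other library by 1, and 108 to 1346 with 1 library left out. For stage 1 primordium against vegetative mycelium, 20 members fell (11.11% against 25.1% of all genes). With no scaling factor 34 fell (18.89% against 33.45%), and with only the 2 stages compared 31 (17.92% against 32.77%). Without both stage 1 primordium replicate 3 and fruiting body replicate 1 the number was 42 (23.33% against 26.09%). That setting was chosen after seeing the members high in these libraries, so its counts are no separate result. With 1 library left out, falls ran from 7 (3.89% against 19.9%) to 31 (17.22% against 22.65%). Rises then ran from 36 (20.0% against 17.84% or 20.89%) to 53 (29.44% against 26.51%). For young fruiting body against stage 1 primordium there were 41 rises (22.78% against 9.88%). The number was 62 by DESeq2 (34.44% against 11.66%) and 23 with all 14 libraries (12.71% against 6.8%). It was 17 with only the 2 stages compared (9.55% against 4.4%) and 110 without both libraries (61.11% against 14.16%). With 1 library left out it ran from 7 (3.89% against 4.33% or 4.02%) to 79 (43.89% against 10.12%). For fruiting body against stage 1 primordium, rises ran from 17 (9.44% against 18.58%) to 76 (42.22% against 19.56%) with 1 library left out. Falls then ran from 0 to 1 (0.56% against 12.23% or 14.81%). For fruiting body against young fruiting body there was 1 fall (0.56% against 2.15%). There were 3 by DESeq2 (1.67% against 5.22%) and 24 without both libraries (13.33% against 2.28%). With only the 2 stages compared there were 0 (0.0% of all genes), and with the replicate block 0 (against 0.82%). With 1 library left out falls ran from 0 to 6 (3.33% against 1.52%). Where a setting leaves fewer samples, the fit has less to estimate the spread from; the cause of the other changes was not tested.

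Of 32 calls of named members, 12 held under all alternatives and 0 turned direction. Same-numbered libraries did not deviate together (r from -0.261 to 0.189 over 18 pairs, 2 of them over 0.1), and a library correlated best with its own number in 9 of 36 cases. No pairing by number was seen, but such deviations need not show a shared culture, which was not tested. With the replicate block, rises in young fruiting body against stage 1 primordium were 30 (16.67% against 7.61% of all genes). In fruiting body against stage 1 primordium they were 42 (23.33% against 20.01%), and 2 named calls were lost. With 2 stage 2 libraries, 1 of them with a large factor, the heights of the peaks are poorly fixed.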
